A study of Mus musculus with 12 samples.

Results

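The 10 genes described here encode interferon-inducible GTPases of the mouse: the guanylate-binding proteins Gbp2, Gbp3, Gbp4, Gbp5, Gbp6 and Gbp7, and the immunity-related GTPases Igtp (also called Irgm3), Irgm1, Irgm2 and Iigp1. They were taken by gene symbol from a table of 53341 genes, in which each had 1 row, and all 10 passed the filter on low values. Poly(A) RNA was sequenced from mouse fibroblast-like synoviocytes in culture, which are fibroblasts of the membrane that lines joints, to sort the TNF response into aspects that need the SOXC transcription factors Sox4, Sox11 and Sox12 and aspects that do not. The 12 libraries form 4 groups of 3. All cells came from mice named only as SoxC and all received an adenovirus: Ade5CMV-eGFP, which makes a green fluorescent protein, in the control and control_TNF groups, and Ade5CMV-Cre, which makes the Cre recombinase, in the SoxC_KO and SoxC_KO_TNF groups. The virus names place both proteins under the CMV promoter, which is active in most cell types. The groups with TNF received recombinant human TNF at 10 ng/mL for 16 h. The sources used here do not give the age or strain of the mice, or which exons Cre deletes. The labels do not say whether the 3 libraries of a group stem from different animals or dishes. The p-values below therefore rest on library-to-library spread alone, and that spread may be technical.

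Interferon-inducible GTPases are among the most abundant products of cells that have met interferon-gamma. Immunity-related GTPases and guanylate-binding proteins assemble on the vacuoles that hold intracellular bacteria and parasites, and guanylate-binding proteins also help to start inflammasome signalling. Igtp, Irgm1 and Irgm2 are regulators that guard the cell's own membranes, whereas Iigp1 is an effector that coats and disrupts the vacuole. Interferon-gamma acts through the kinases Jak1 and Jak2 and on to GAS elements in its target genes. Factors of the IRF family such as Irf1 bind the interferon-stimulated response element (ISRE). TNF acts mainly through NF-kB, and one of its targets is the gene of Irf1.

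The stretches of DNA just before the start sites are shown to mark a common element, the ISRE pattern, found in 7 of the 8 windows. RefSeq windows (GRCm38.p6, 250 bases before to 50 bases after the annotated start) were found for 7 of the 10 genes, and for Gbp3 at 2 start sites. Windows of Gbp4, Gbp6 and Iigp1 were not used here. RefSeq starts can differ from the deposited gene bounds, which are given below. The stretches shown for Gbp2, Gbp3, Gbp5, Irgm1 and Irgm2 lie partly or wholly within those bounds. Each line below runs 5′ to 3′ on the gene's own strand and ends at the base before the start. Lines hold 130 bases, except that of Gbp5, which was lengthened to 180 so that its farther match is shown. The second start site of Gbp3, which held no match, is not printed. Capitals mark matches to the ISRE pattern, GAAA, any 2 bases and GAAA again, on either strand, so a match on the other strand reads TTTC, any 2 bases and TTTC. The 4 windows of guanylate-binding proteins lie on chromosome 3, at chr3:142620533-142620662 for Gbp2, chr3:142559914-142560043 for Gbp3, chr3:142496754-142496933 for Gbp5 and chr3:142530206-142530335 for Gbp7, all on the plus strand. Those of the immunity-related GTPases lie on chromosome 11, at chr11:58199426-58199555 for Igtp and chr11:58214847-58214976 for Irgm2 on the plus strand, and at chr11:48871421-48871550 for Irgm1 on the minus strand.
Gbp2: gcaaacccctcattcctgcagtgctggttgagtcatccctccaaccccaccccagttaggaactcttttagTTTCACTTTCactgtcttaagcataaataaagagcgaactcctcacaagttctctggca
Gbp3: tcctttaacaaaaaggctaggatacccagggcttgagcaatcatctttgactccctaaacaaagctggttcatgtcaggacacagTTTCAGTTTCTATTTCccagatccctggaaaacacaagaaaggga
Gbp5: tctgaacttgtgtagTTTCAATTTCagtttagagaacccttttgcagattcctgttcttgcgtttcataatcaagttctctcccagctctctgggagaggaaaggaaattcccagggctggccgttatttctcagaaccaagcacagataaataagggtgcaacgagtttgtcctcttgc
Gbp7: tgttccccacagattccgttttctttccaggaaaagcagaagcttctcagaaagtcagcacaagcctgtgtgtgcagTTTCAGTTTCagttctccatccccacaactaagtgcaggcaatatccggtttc
Igtp: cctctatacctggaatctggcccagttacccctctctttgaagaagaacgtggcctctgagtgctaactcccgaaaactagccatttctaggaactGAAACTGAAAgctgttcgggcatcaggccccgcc
Irgm1: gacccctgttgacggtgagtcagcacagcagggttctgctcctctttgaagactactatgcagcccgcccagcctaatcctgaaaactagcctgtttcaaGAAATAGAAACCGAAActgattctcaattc
Irgm2: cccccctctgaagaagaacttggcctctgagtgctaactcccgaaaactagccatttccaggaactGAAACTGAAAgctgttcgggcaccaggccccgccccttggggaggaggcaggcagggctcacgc

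All 7 genes with a window held an ISRE match, in 7 of their 8 windows, a pattern found in 3.44% of 32851 RefSeq windows of the same length. Gbp3 and Irgm1 each held a pair of matches that overlapped by 4 bases. The match began 59 bases before the start in Gbp2, 53 in Gbp7 and 34 in Igtp, and 165 in Gbp5, where it lay farthest away. The second start site of Gbp3 held no match. The GAS pattern TTCNNNGAA, searched on both strands, was present in Gbp5, Gbp7, Igtp and Irgm2, 4 of the 7 genes, and in 8.30% of all windows. Gbp5 was the 1 gene of the 7 with a match to the kB consensus, which binds NF-kB and was present in 4.51% of windows. The SOX pattern AACAAAG was found in Gbp3 alone of the 7, 73 bases before the start, and in 5.85% of all windows. Igtp and Irgm2, which are neighbours on chromosome 11, shared a longest run of 38 identical bases, upstream of the ISRE matches, whereas the longest run shared by any other pair of these genes was 13 bases. These matches describe letters in the sequence, and binding was not measured.

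**Figure D1:**
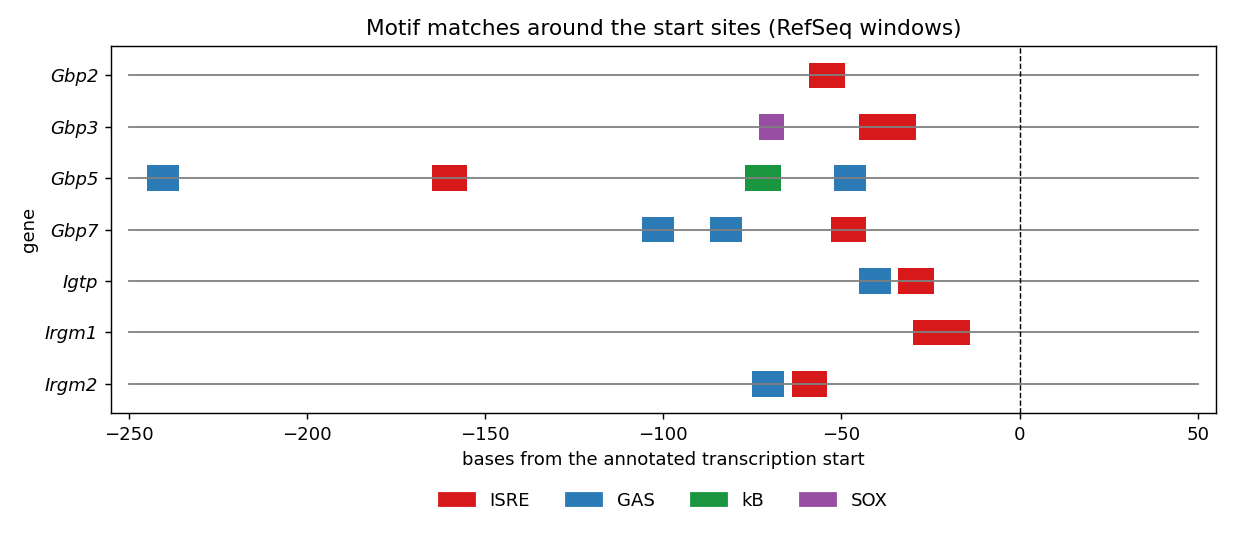
Positions of motif matches in the RefSeq window of 7 genes; the horizontal axis gives bases from the annotated start, the grey line spans the window, and coloured bars mark ISRE, GAS, kB and SOX matches. All 7 genes hold an ISRE bar, which lies within 64 bases before the start except in Gbp5, where it begins 165 bases before it.

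Normalized totals ran from 19.6 to 23.1 M per library, from an estimated 8.14 to 13.7 M counted reads, and no pair of libraries held identical values. All 8 synoviocyte markers (Pdgfra, Pdpn, Thy1, Prg4, Col1a1, Col1a2, Col3a1, Cdh11) were present, with a summed normalized count of 158014 to 498558. The summed level of 8 macrophage and leukocyte markers was 3377 to 3929 in the 4 libraries numbered 3, against 1370 to 2020 in the other 8. Of these 8 markers 6 passed the filter on low values, and whether leukocytes were present was not tested. Among T and NK cell markers, a possible source of interferon-gamma, the sum was at most 24.2. Hepatocyte markers summed to 559 in control_TNF replicate 2 and 3630 in SoxC_KO_TNF replicate 1, against 72.4 or less elsewhere. Sox4, the most abundant SOXC gene, averaged 3413 ± 1348 in control and 2323 ± 1146 in control_TNF, against 1138 ± 511 in SoxC_KO cells and 902 ± 263 once these had TNF (SD, n = 3 each), and its reads would not check the knockout if they lie outside the part that Cre removes.

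Every one of the 10 GTPase genes was transcribed without TNF. Levels of different genes were compared as normalized counts per 1000 bases of exon. Gbp2 stood highest in control cells, at 1223 ± 249.7 per 1000 bases (SD, n = 3). Gbp3 (548 ± 71.1), Irgm1 (523 ± 98.1), Irgm2 (519 ± 27.2) and Igtp (505 ± 169) followed and differed from each other by less than their spread, and Iigp1 was at 297 ± 5.49. Gbp7 (106 ± 33.0), Gbp6 (68.7 ± 1.17) and Gbp5 (35.2 ± 3.49) were lower, and Gbp4 was lowest at 3.34 ± 1.62. Thus, per 1000 bases, the basal levels of the 3 regulators Irgm1, Irgm2 and Igtp lay close together and that of the effector Iigp1 lower. Those of the guanylate-binding proteins spread from the highest to the lowest of the 10. The order of the former depends on exon length: undivided control means were 3038 for Irgm1, 1916 for Irgm2, 1728 for Iigp1 and 1020 for Igtp. The annotation that gave the exon length of Iigp1 has other coordinates for this gene than the deposited ones. With TNF, Gbp2 reached 2942 ± 268 per 1000 bases in control cells, Gbp6 149.7 ± 37.6 and Gbp7 136 ± 84.6, the last 2 within each other's spread. In bulk RNA, fewer cells of a type and less RNA per cell cannot be told apart.

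**Figure D2:**
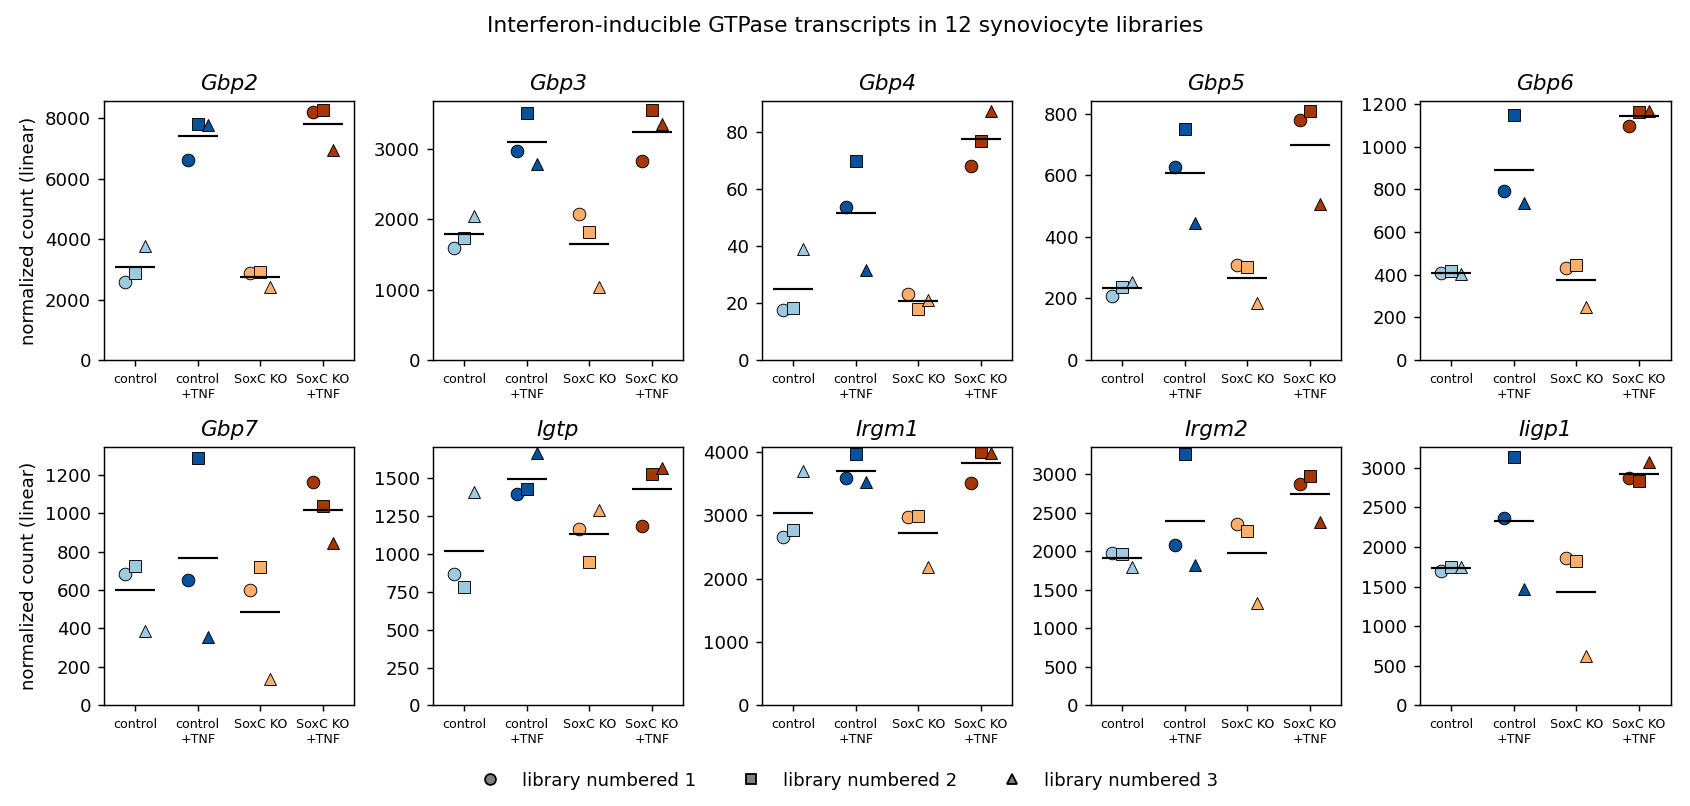
Normalized count (linear axis from 0) of each gene in the 12 libraries, by group; circles, squares and triangles are the libraries numbered 1, 2 and 3, and the horizontal line is the group mean. Gbp2 shows the TNF groups clear of the others, between 6624 and 8276, whereas Gbp7, Irgm2 and Iigp1 have low triangles in several groups.

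Gbp2 (ENSMUSG00000028270, mm10 chr3:142620602-142638008, plus strand), a guanylate-binding protein that is recruited to pathogen vacuoles, rose with TNF in both genotypes. Its normalized counts were 2575, 2876 and 3782 in control, 6624, 7812 and 7768 in control_TNF, 2884, 2908 and 2412 in SoxC_KO and 8196, 8276 and 6943 in SoxC_KO_TNF. Every library with TNF lay above every library without it, in both genotypes. On the log2(normalized count + 1) scale used for all changes below, Gbp2 rose by 1.28 in control cells (SE 0.19, 2.43-fold, limma adjusted p = 0.0172 by Benjamini-Hochberg over all 18139 genes kept) and by 1.51 in knockout cells (SE 0.19, 2.86-fold, limma adjusted p = 0.00626). In control cells the limma call was lost without control replicate 1, control replicate 2 or any single control_TNF library, where the change stayed between 1.16 and 1.44 over all single omissions and the adjusted p reached 0.129. In knockout cells it was lost without SoxC_KO_TNF replicate 1 (limma adjusted p = 0.0547).

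Gbp6 (ENSMUSG00000104713, mm10 chr5:105270702-105293698, minus strand), a guanylate-binding protein of the chromosome 5 cluster, was at 409, 416 and 402 in control, 793, 1147 and 734 in control_TNF, 429.8, 443 and 247 in SoxC_KO and 1098, 1164 and 1167 in SoxC_KO_TNF. The TNF libraries again lay above all others of the same genotype, and the 3 control libraries without TNF were almost equal. Gbp6 rose by 1.66 in knockout cells (SE 0.25, 3.16-fold, limma adjusted p = 0.0202). Its change of 1.09 in control cells (SE 0.25, 2.13-fold) gave a limma adjusted p of 0.167, and 0.0117 with the replicate number as a block, a call lost without control replicate 1 or 2 or control_TNF replicate 2 or 3 (limma adjusted p up to 0.110). The knockout call was lost without SoxC_KO replicate 1 or any single SoxC_KO_TNF library (limma adjusted p up to 0.110), with changes between 1.39 and 1.81 over all single omissions. Reads of Gbp6 are uncertain, since its exons share bases with the gene model Gm43302 on the same strand and the family holds close copies.

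Gbp5 (chr3:142493978-142522344, plus strand), which promotes the NLRP3 inflammasome, was at 209, 238 and 254 in control, 629, 751 and 446 in control_TNF, 309.6, 302 and 186 in SoxC_KO and 779.6, 811 and 507 in SoxC_KO_TNF. TNF libraries lay above untreated ones in both genotypes, and the library numbered 3 was the lowest of its group in all groups but control. The change was 1.35 in control cells (SE 0.28, limma adjusted p = 0.110) and 1.40 in knockout cells (SE 0.28, limma adjusted p = 0.0933), and with the replicate block both passed (limma adjusted p = 0.00293 and 0.00258).

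Gbp3 (chr3:142560026-142573209, plus strand), which lies between Gbp7 and Gbp2 in the chromosome 3 cluster, was at 1594, 1731 and 2047 in control, 2979, 3517 and 2794 in control_TNF, 2075, 1814 and 1042 in SoxC_KO and 2835, 3557 and 3354 in SoxC_KO_TNF. Here too the groups with and without TNF did not overlap in either genotype. The change was 0.79 in control cells (limma adjusted p = 0.566, and 0.109 with the block) and 1.04 in knockout cells (limma adjusted p = 0.176, and 0.0246 with the block). The blocked call in knockout cells was lost without control_TNF replicate 3, SoxC_KO replicate 2 or 3, or SoxC_KO_TNF replicate 1 or 3, with a change of 0.72 and a limma adjusted p of 0.125 without SoxC_KO replicate 3.

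Gbp4 (chr5:105115767-105139586, minus strand), the member with the lowest counts, was at 17.7, 18.3 and 39.0 in control, 53.6, 69.7 and 31.6 in control_TNF, 23.2, 17.8 and 21.2 in SoxC_KO and 68.1, 76.7 and 87.4 in SoxC_KO_TNF. In control cells the libraries numbered 3 crossed, the untreated one being higher, whereas in knockout cells all TNF libraries lay above the untreated ones. The change of 1.85 in knockout cells was the largest of any member (SE 0.37, 3.61-fold, limma adjusted p = 0.0886, and 0.0195 with the block), against 1.04 in control cells (SE 0.37, limma adjusted p = 0.756, and 0.260 with the block). The blocked call in knockout cells was lost without any single SoxC_KO library, SoxC_KO_TNF replicate 1 or SoxC_KO_TNF replicate 3 (changes between 1.73 and 2.01 over all single omissions, limma adjusted p up to 0.0964). The exons of Gbp4 share bases with Gbp8 and Gbp9 on the same strand, so its counts are uncertain.

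Gbp7 (chr3:142530342-142550149, plus strand), which has been linked to the phagocyte oxidase, varied most between libraries of a group. It was at 681, 726 and 385 in control, 653, 1287 and 358 in control_TNF, 602, 720.1 and 135 in SoxC_KO and 1159, 1036 and 846 in SoxC_KO_TNF. The library numbered 3 was the lowest in every group. The change was 0.22 in control cells (SE 0.60, limma adjusted p = 0.998, and 0.800 with the block) and 1.37 in knockout cells (SE 0.60, limma adjusted p = 0.663, and 0.0460 with the block). The blocked call in knockout cells held in 3 of 12 single omissions, those of control_TNF replicate 2, SoxC_KO replicate 2 and SoxC_KO_TNF replicate 2 (limma adjusted p up to 0.236 in the others). In the fit without the block, without SoxC_KO replicate 3 the knockout change was 0.61 and did not pass, and without control_TNF replicate 2 the control change was -0.25 (limma adjusted p = 0.875). Exons of Gbp7 share bases with the gene model Gm43802 on the same strand.

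None of the 4 immunity-related GTPases passed in either genotype in the fits of all 12 libraries, with or without the block. Over single omissions with the block, up to 7 of the 10 members passed in knockout cells. Only 6 members are guanylate-binding proteins, so at least 1 immunity-related GTPase was called there. With all libraries, at an unadjusted p under 0.05 limma had 1 of the 4 in control cells and 2 in knockout cells, and 1 and 3 with the block. Of all 18139 genes, 763 and 1339 had such a p in limma without the block, and 2215 and 3816 with it. Iigp1 (mm10 chr18:60376029-60392627, plus strand), the vacuole-coating effector, was at 1692, 1742 and 1751 in control, 2361, 3139.7 and 1469.5 in control_TNF, 1856, 1821 and 629.7 in SoxC_KO and 2867, 2830.4 and 3072 in SoxC_KO_TNF. In knockout cells all TNF libraries lay above the untreated ones, whereas in control cells the TNF library numbered 3 lay below all 3 untreated ones. The change was 0.36 in control cells (SE 0.39, limma adjusted p = 0.998) and 1.18 in knockout cells (SE 0.39, limma adjusted p = 0.403, and 0.0516 with the block). Without SoxC_KO replicate 3 the knockout change was 0.67 (limma adjusted p = 0.744).

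Irgm1 (chr11:48861968-48871683, minus strand), a regulator of the other immunity-related GTPases, was at 2653, 2768 and 3692 in control, 3578, 3967 and 3525 in control_TNF, 2975, 2985 and 2185 in SoxC_KO and 3507, 3989 and 3974 in SoxC_KO_TNF. The groups overlapped in control cells and did not in knockout cells. The change was 0.29 in control cells and 0.51 in knockout cells (SE 0.19 each, limma adjusted p = 0.998 and 0.526). Irgm2 (chr11:58199618-58222782, plus strand), another regulator, was at 1979, 1969 and 1801 in control, 2081, 3258 and 1816 in control_TNF, 2351, 2259 and 1332 in SoxC_KO and 2867, 2974 and 2382 in SoxC_KO_TNF. Its control_TNF replicate 2 stood well above the other control libraries, and in knockout cells the groups did not overlap. The change was 0.27 in control cells and 0.51 in knockout cells (SE 0.27 each, limma adjusted p = 0.998 and 0.746).

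Igtp (chr11:58199556-58207591, plus strand), the third regulator, was at 865, 783 and 1413 in control, 1395, 1432 and 1666 in control_TNF, 1166, 948 and 1294 in SoxC_KO and 1183, 1530.4 and 1568 in SoxC_KO_TNF. The groups overlapped in both genotypes, and unlike most members Igtp was highest in the library numbered 3 of every group. It was the 1 member with a smaller change in knockout cells (0.33, SE 0.24, limma adjusted p = 0.811) than in control cells (0.60, SE 0.24, limma adjusted p = 0.998). Igtp and Irgm2 overlap and share exon bases on the same strand, so some of their reads may not be separable.

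In control cells 1 of the 10 members rose with TNF (Gbp2), where 0.287% of all 18139 genes rose. In knockout cells 2 rose (Gbp2 and Gbp6), where 0.243% of all genes rose. With the replicate block 3 rose in control cells (Gbp2, Gbp5 and Gbp6; 1.18% of all genes) and 6 in knockout cells, which were all 6 guanylate-binding proteins (1.78% of all genes). Over single omissions the blocked count in knockout cells ran from 3 to 7. It was 3 (Gbp2, Gbp5 and Gbp6) without SoxC_KO replicate 3, SoxC_KO_TNF replicate 1 or SoxC_KO_TNF replicate 3, and also without the 2 libraries with hepatocyte transcripts or the 4 numbered 3. It was 4 without control_TNF replicate 3, SoxC_KO replicate 1 or SoxC_KO replicate 2. In control cells the blocked count was 2 (Gbp2 and Gbp5) without control replicate 1, control replicate 2, control_TNF replicate 2 or control_TNF replicate 3. No member fell, where in control cells 0.0331% of all genes fell (0.529% with the block) and in knockout cells 0.0496% (1% with the block). The median change of the 10 was 0.69 in control cells and 1.28 in knockout cells, against -0.02 and -0.01 over all genes. Among the guanylate-binding proteins the median change was 1.07 in control cells and 1.45 in knockout cells, and among the 4 immunity-related GTPases 0.33 and 0.51. The difference between the branches was not tested, and the 4 are not all the immunity-related GTPases of the mouse. Tgtp2, described below, is another. Averaged over both genotypes, Gbp4 (1.45), Gbp2 (1.40), Gbp6 (1.38), Gbp5 (1.37) and Gbp3 (0.91) rose, with limma adjusted p between 0.000354 and 0.0312, where 0.877% of all genes rose. Igtp (0.46) passed in addition with the block (limma adjusted p = 0.0419, 3.01% of all genes), and did so in 2 of 12 single omissions, those of SoxC_KO_TNF replicate 3 and control replicate 3 (limma adjusted p up to 0.166 in the others). None fell in the average either, against 0.292% of all genes, and 2.18% with the block. Without any one of 7 libraries (control replicates 1 and 2, control_TNF replicates 1 and 2, SoxC_KO replicate 2, SoxC_KO_TNF replicates 2 and 3) 3 members kept the averaged call, namely Gbp2, Gbp5 and Gbp6. Without the 2 libraries with hepatocyte transcripts it was 2, Gbp2 and Gbp6, and without the 4 libraries numbered 3 it was 8, all but Gbp7 and Irgm2.

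**Figure D3:**
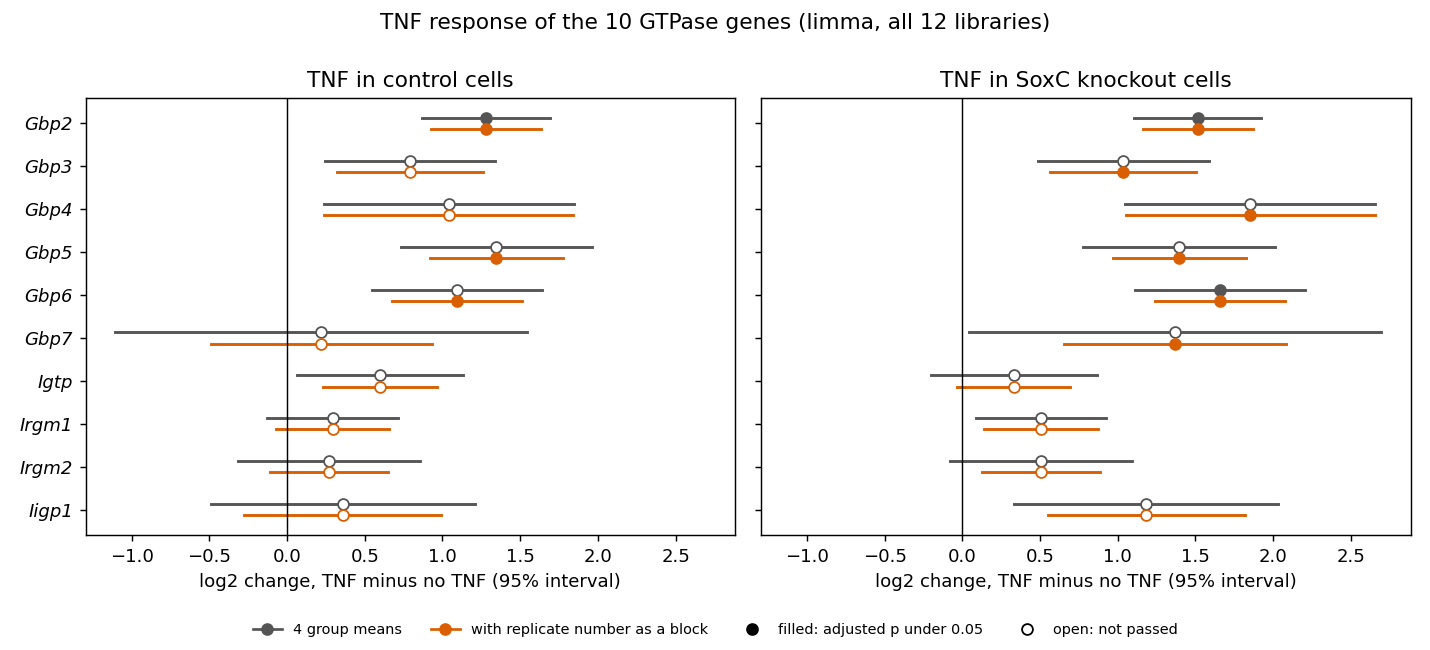
Change with TNF on the log2(normalized count + 1) scale for each gene in control cells (left) and knockout cells (right), with limma's 95% interval; grey is the fit of 4 group means, orange the fit with replicate number as a block, and filled points passed at an adjusted p under 0.05. All 10 points lie above 0 in both panels, and the 6 guanylate-binding proteins are filled in orange on the right.

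Groups with and without TNF did not overlap, with TNF higher, for 4 of 10 members in control cells (Gbp2, Gbp3, Gbp5 and Gbp6), where this held for 4.6% of all genes, and for 9 in knockout cells (all but Igtp), where it held for 6.43%. No member lay wholly below, which held for 4.11% of all genes in control cells and 6.4% in knockout cells. Taken by number, 6 members (Gbp2, Gbp3, Gbp5, Gbp6, Igtp and Irgm2) were higher with TNF in 6 of 6 pairs, a pattern of 4.91% of all genes. Gbp4, Irgm1 and Iigp1 were higher in 5 pairs and Gbp7 in 4. The exceptions lay in control cells, where the pair numbered 3 was lower with TNF for Gbp4 (log2 -0.29), Gbp7 (-0.11), Irgm1 (-0.07) and Iigp1 (-0.25), and pair 1 was lower for Gbp7 (-0.06).

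The libraries numbered 3 stood apart in both genotypes, in opposite directions. In control cells the pair numbered 3 had the smallest TNF change of the 3 pairs for all 10 members, which held for 26.2% of all genes. In knockout cells it had the largest for 8 members, which held for 39.6% of all genes, with log2 differences of 2.64 for Gbp7, 2.28 for Iigp1, 2.24 for Gbp6 and 1.69 for Gbp3. SoxC_KO replicate 3 was the lowest of all 12 libraries for those same 8 members, against 27.3% of all genes, and the exceptions were Gbp4 and Igtp. Its median deviation from the group mean over the members was -0.50, against -0.02 over all genes, and control_TNF replicate 2 was on the other side at 0.36. In all 4 libraries numbered 3 the macrophage marker sum was higher than in the other 8 and the synoviocyte marker sum was lower (158014 to 326201 against 343197 to 498558), and the part of either in these values was not tested. Across the 10 members the summed count was 9484 in SoxC_KO replicate 3, 14671 and 14217 in the other SoxC_KO libraries, and 12674 to 15566 in control.

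**Figure D4:**
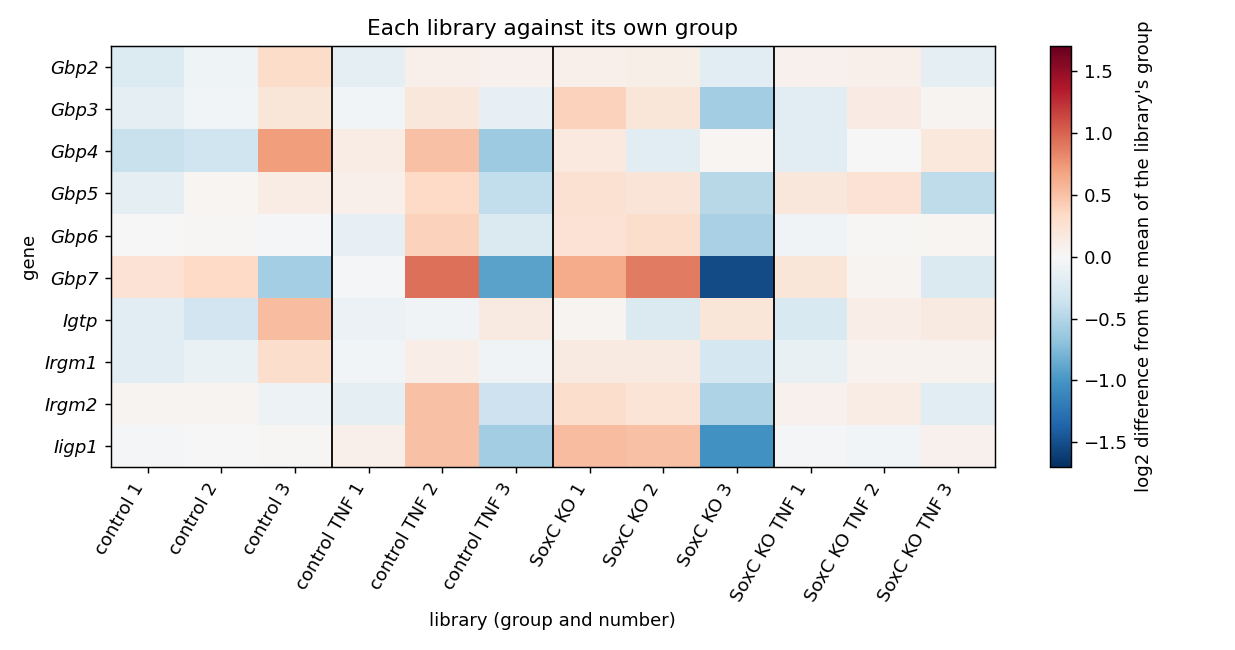
Difference of each library from the mean of its own group on the log2 scale (colour), for the 10 genes (rows) and 12 libraries (columns, vertical lines separating the groups). SoxC_KO replicate 3 is blue for 8 of the 10 genes, deepest for Gbp7 and Iigp1, and control_TNF replicate 2 is red for 9.

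Between cells with the Cre virus and cells with the eGFP virus no member passed the test. Loss of SoxC, Cre and eGFP cannot be told apart in this comparison. Without TNF the change after Cre ran from -0.56 (Gbp7) to 0.19 (Igtp), and with TNF from -0.08 (Igtp) to 0.64 (Gbp4). None of the 10 passed in either setting, and 0% of all genes did, in limma with or without the block (members' limma adjusted p at least 0.997, and at least 0.618 with the block). At an unadjusted p under 0.05 limma had 0 members in both settings, and 176 and 233 of all genes without the block. Libraries of the 2 genotypes overlapped for all 10 members, without and with TNF. Over all genes, the knockout libraries lay wholly higher for 2.39% and wholly lower for 1.98% without TNF, and for 2.82% and 2.34% with TNF. The 95% intervals bound what could have been missed: for Gbp2 they ran from -0.57 to 0.25 without TNF and from -0.33 to 0.49 with TNF, and for Gbp7 from -1.89 to 0.76 and from -0.74 to 1.91. Without the 4 libraries numbered 3, the change without TNF turned from below 0 to above it for 6 members, among them Gbp3 (from -0.17 to 0.22) and Iigp1 (from -0.43 to 0.10).

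Whether the TNF response itself differed between genotypes was tested as an interaction. It was above 0, meaning a larger TNF change in knockout cells, for 9 members and below 0 for Igtp (-0.27). The largest values were 1.15 for Gbp7 (95% interval -0.72 to 3.02), 0.82 for Iigp1 (-0.38 to 2.03), 0.81 for Gbp4 (-0.33 to 1.95) and 0.57 for Gbp6 (-0.21 to 1.34). None passed (limma adjusted p 0.884 to 0.980, and 0.284 to 0.941 with the block), nor did any other gene. At an unadjusted p under 0.05 limma had 0 members, and 1 with the block, Gbp7, beside 273 and 3123 of all genes. So the larger number of members called in knockout cells is not shown to be a difference between genotypes. Without the 4 libraries numbered 3 the value was below 0 for Gbp3 (-0.25), Gbp5 (-0.24), Irgm1 (-0.15), Irgm2 (-0.058) and Iigp1 (-0.034).

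The members followed each other to different degrees across the 12 libraries. The correlation of each with the mean of the other 9 was highest for Gbp6 (Pearson r = 0.979), Gbp3 (0.967) and Gbp5 (0.942) and lowest for Gbp7 (0.693) and Igtp (0.485). With group means removed, Gbp6 (0.924), Iigp1 (0.919), Gbp3 (0.891) and Irgm2 (0.882) still varied together between libraries of a group, whereas Igtp did not (-0.23) and Gbp4 (0.380) and Gbp2 (0.492) did so less. These are descriptions over 12 libraries that share groups and numbers.

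Among 11659 other genes with a mean of at least 50, the 8 whose levels were most alike to the members' mean profile had Pearson r of 0.963 to 0.984 over the 12 libraries. Cybb, the catalytic subunit of the phagocyte NADPH oxidase, came first (r = 0.984), going from 66.4 ± 10.6 in control to 204 ± 58.3 in control_TNF, and from 69.1 ± 28.7 in SoxC_KO to 289 ± 8.57 in SoxC_KO_TNF (SD, n = 3 each). It was followed by the NF-kB target and apoptosis inhibitor Birc3 (0.982), the chemokine Cxcl9 (0.975), the immunity-related GTPase Tgtp2 (0.971), Phf11d (0.969), the membrane protein Gypc (0.963), the drug transporter Abcb1a (0.963) and the interleukin-13 decoy receptor Il13ra2 (0.963). All 8 were lowest in SoxC_KO replicate 3, as were 8 of the 10 members, but the genes were chosen for likeness to the members' profile, so this is no separate observation.

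Of 19 other interferon-inducible GTPases 15 were tested. None passed in either genotype without the block, where 0 of 15 rose in limma against 0.287% and 0.243% of all genes (6 and 8 at an unadjusted p under 0.05 in limma). With the block 2 rose in control cells, Gm12250 (1.90) and Ifi47 (0.97), and 4 in knockout cells, Gbp10 (1.74), Gbp9 (1.53), Ifi47 (1.23) and Tgtp2 (1.21). In that fit 1.18% and 1.78% of all genes rose. Averaged over genotypes 4 rose without the block, Gm12250 (1.58), Gbp10 (1.35), Ifi47 (1.10) and Tgtp2 (1.08), and with the block 6, which added Gbp9 (1.09) and Tgtp1 (0.92). Of all genes 0.877% rose in the average without the block and 3.01% with it. The antiviral GTPases Mx1 and Mx2 did not pass (average changes 0.76 and 0.42, limma adjusted p = 0.292 and 0.536). The median of the 15 was 0.42 in control cells and 1.23 in knockout cells.

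Transcripts of the interferons themselves were barely seen. All 6 ligands looked at fell below the filter, with Ifng at most 2.59 and Ifnb1 at most 6.04 in any library, and Ifnl2 and Ifnl3 were listed at 0 in all 12. At this depth a change in these genes was not detectable. Of 10 receptor and signalling genes none passed without the block (1 in control cells and 2 in knockout cells at an unadjusted p under 0.05 in limma). With it the interferon-gamma receptor chain Ifngr2 rose in control cells (0.63, limma adjusted p = 0.0278) and the kinase Jak2 in knockout cells (1.59, limma adjusted p = 0.00248). Of 9 regulatory factors tested, Irf1 was the 1 called with the block in either genotype. It rose by 0.86 in control cells and 0.67 in knockout cells (limma adjusted p = 0.0143 and 0.0442). Without the block it did not pass (limma adjusted p = 0.718 and 0.668). Averaged over genotypes none of these 2 lists passed without the block. With it 3 of the 9 factors and 2 of the 10 receptor and signalling genes passed, where 3.01% of all genes rose and 2.18% fell. None of 6 negative regulators passed in either fit (limma, 0 and 1 at an unadjusted p under 0.05 without the block, 2 and 1 with it). Usp18, the most abundant of them, had a mean of 2614.

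Further genes that respond to interferon or TNF were taken as 3 lists. Among 16 antiviral interferon-stimulated genes none passed in either genotype without the block (limma, 1 and 5 at an unadjusted p under 0.05). With the block Ifih1 rose in knockout cells (0.92, limma adjusted p = 0.0442), and 9 and 11 genes had an unadjusted p under 0.05 in limma. Averaged over genotypes none of the 16 passed without the block. With it 6 passed (limma, 13 at an unadjusted p under 0.05), where 3.01% of all genes rose and 2.18% fell. The median change of the 16 was 0.42 in control cells and 0.60 in knockout cells. The chemokine Cxcl10 rose in both genotypes (1.55 and 1.56, limma adjusted p = 0.0299 and 0.0239), and Cxcl9 (1.76 and 1.73) with the block (limma adjusted p = 0.00530 and 0.00598). Of 11 genes of NF-kB subunits and their feedback, 2 rose in control cells (Traf1, 2.03, and Tnip1, 1.27) and 3 in knockout cells (Traf1, 1.61, Tnfaip3, 1.59, and Birc3, 1.56). Of all genes 0.287% and 0.243% rose. With the block 9 and 7 of the list rose, where 1.18% and 1.78% of all genes did. The list's medians were 1.08 and 0.87.

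Proteins that work with the GTPases at the vacuole and the inflammasome were taken as 2 lists. None of 10 genes of the ATG8 system, which targets these GTPases to vacuoles, passed in either fit (limma, 0 and 0 at an unadjusted p under 0.05 without the block, 1 and 1 with it), and their medians were 0.11 and -0.04. Gabarap, the most abundant of them, had a mean of 8832. Among 10 ubiquitin and inflammasome partners the inflammasome sensor Nlrp3 rose from 109 ± 8.18 to 351 ± 50.6 in control cells and from 89.1 ± 30.0 to 299 ± 13.8 in knockout cells (SD, n = 3 each; changes 1.68 and 1.78, limma adjusted p = 0.0138 and 0.00973). With the block Gsdmd (1.04) and Sqstm1 (0.72) also rose in control cells and Trim21 (0.68) in knockout cells. In that fit 1.18% and 1.78% of all genes rose.

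**Figure D5:**
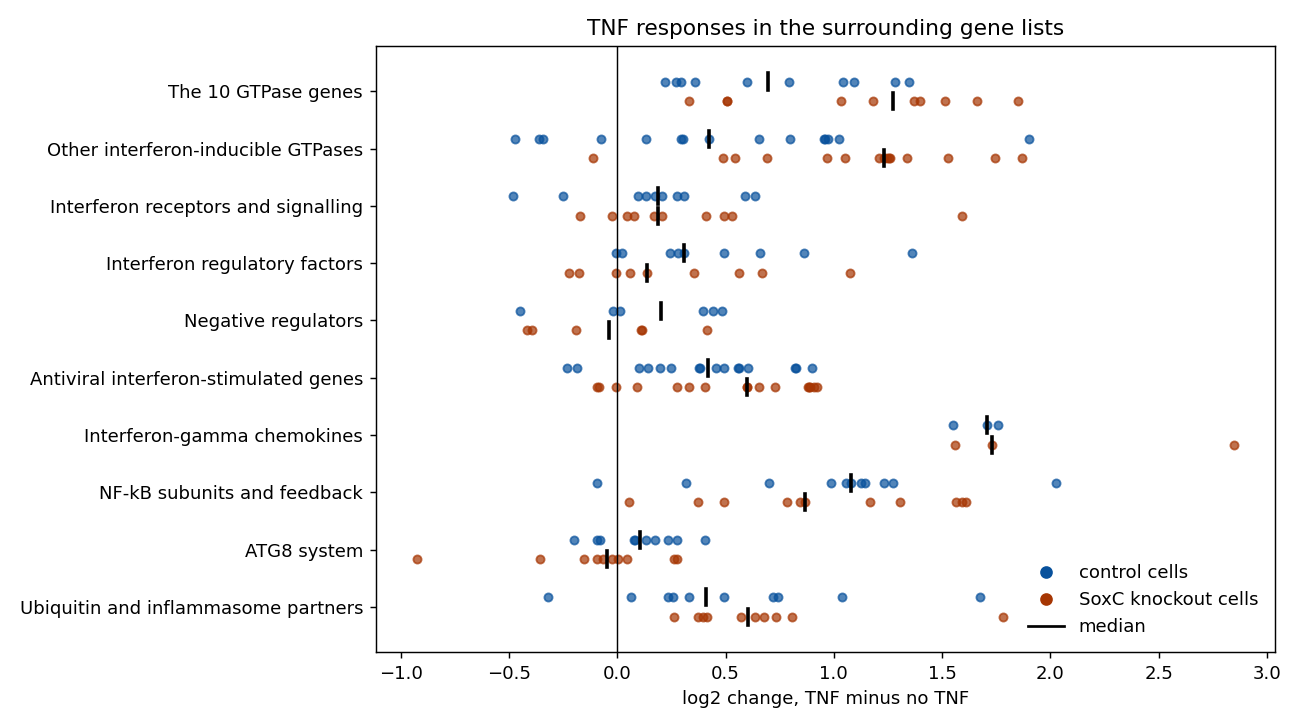
Change with TNF (log2 scale, fit of 4 group means) of each tested gene, by list, in control cells (blue) and knockout cells (brown); black bars are medians. The 10 GTPase genes have medians of 0.69 and 1.28, the NF-kB list 1.08 and 0.87, and the ATG8 list sits near 0 at 0.11 and -0.04.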

How the data were processed

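Sample titles gave the groups and the replicate numbers. The deposited table holds 1 log2 value per gene and library, normalized between libraries by the authors per the file headers; the log2 scale was read from the values, and normalized counts of 1 or less are listed as 0. The submitters' processing notes name DESeq and the build mm10, and the sources used here do not give the aligner, annotation or use of strand. Linear normalized counts were recovered as powers of 2, with values of 0 left at 0. Genes at 10 or more in at least 3 of 12 libraries were kept (18139) and analysed as log2(normalized count + 1), which understates changes of low genes, in limma 3.58.1 (R 4.3.3) with 4 group means, an intensity trend, and Benjamini-Hochberg adjustment at 0.05. The script was tested on simulated data. Whole reads could not be recovered (42.5% to 49.5% of low values whole within 0.01 read), so no count model was run and the read totals are rough.

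Same-numbered libraries correlated, group means removed, above 0.1 in every pair for control and control_TNF (r = 0.103, 0.550 and 0.715), SoxC_KO and SoxC_KO_TNF (0.340, 0.148 and 0.501) and control and SoxC_KO (0.457, 0.515 and 0.707), and not for control_TNF and SoxC_KO_TNF (0.0537, 0.189 and 0.526); the block fit is given beside results where it changed the call. The labels do not state a pairing, and the libraries numbered 3 stand apart together.

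All 10 members are named, with up to 4 called genes per surrounding list (the most abundant gene where none was called, and a few others named after their values were seen, such as Mx1 and Mx2), and the 8 genes most alike in profile. Members and lists were chosen with earlier results of these data known. Exon lengths came from GENCODE M21, whose identifiers matched 99.8% of the table; its coordinates for Iigp1 differ from the table's. 1 gene of a surrounding list is not reported here. Alternatives were other pseudocounts, filters and normalization, fewer groups, the block, and omitted libraries.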

Additional observations from a re-analysis of the deposited data

How the results depend on the processing

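Counts of members called were 1 for TNF in control cells, 2 in knockout cells and 5 for the average, and did not move by over 1.5 times with other pseudocounts, a stricter filter or no intensity trend. In control cells the count was 3 with the replicate block, 2 with quantile normalization, 0 with only the 2 groups compared (4 members at an unadjusted p under 0.05 in limma) and 4 with those groups and the block. It was 0 without the 2 libraries with hepatocyte transcripts (4 members at an unadjusted p under 0.05 in limma; 2 with the block) and 5 without the 4 libraries numbered 3 (4 with the block). In knockout cells it was 6 with the block, 0 with only those groups (6 at an unadjusted p under 0.05 in limma), 1 with those groups and the block, 0 without the hepatocyte libraries (7 at an unadjusted p under 0.05 in limma) and 4 without those numbered 3. The average count was 3 with no filter, 2 without the hepatocyte libraries and 8 without those numbered 3. Leaving out 1 library gave 0 to 3 in control cells, 0 to 3 in knockout cells and 3 to 5 for the average, and with the block 2 to 4, 3 to 7 and 5 to 8. The cause of these shifts was not tested.

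The direction of Gbp7 with TNF in control cells reversed without the hepatocyte libraries (-0.25), and single omissions gave -0.25 to 0.67. For the knockout without TNF, omitting the libraries numbered 3 turned Gbp2 (0.089), Gbp3 (0.22), Gbp4 (0.17), Gbp6 (0.081), Irgm1 (0.14) and Iigp1 (0.10) above 0. For the knockout with TNF, the same omission turned Gbp3 (-0.028) and Irgm1 (-0.010), and omitting the hepatocyte libraries turned Igtp (0.023). For the interaction, omitting those numbered 3 turned Gbp3 (-0.25), Gbp5 (-0.24), Irgm1 (-0.15), Irgm2 (-0.058) and Iigp1 (-0.034), and quantile normalization turned Gbp5 (-0.043). Leaving out 1 library at a time also turned directions. For the knockout without TNF the ranges were Gbp2 -0.28 to 0.0015, Gbp3 -0.37 to 0.12, Gbp4 -0.36 to 0.18, Gbp6 -0.33 to 0.093, Gbp7 -1.01 to 0.19, Irgm2 -0.14 to 0.27 and Iigp1 -0.69 to 0.089. For the knockout with TNF the ranges were Gbp2 -0.0017 to 0.16, Gbp3 -0.0013 to 0.16, Gbp5 -0.0059 to 0.42 and Igtp -0.15 to 0.053. For the interaction the ranges were Gbp3 -0.054 to 0.44, Gbp5 -0.19 to 0.26 and Irgm2 -0.027 to 0.48.

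Over all genes, calls in either direction numbered 58 in control cells, 53 in knockout cells and 212 for the average. With the block they were 310, 505 and 941, without the hepatocyte libraries 15, 10 and 92, and without those numbered 3 they were 274, 193 and 668.

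With 3 libraries a group, single libraries decided many calls, and low genes such as Gbp4 carry the most counting error.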
